A study of Homo sapiens with 30 samples.

Results

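H1299 cells lack p53, and the 12 libraries described here, of 30 in the series, come from cultures in which no active p53 was supplied: 6 libraries taken 6 h and 6 taken 24 h after transfection. They were chosen by their labels as the pGFP and the RW mutant p53 groups at both times, with 3 replicates in each of the 4 groups. H1299 is a human lung carcinoma line, used here between passages 7 and 12. The cells received a plasmid with Lipofectamine, the pGFP vector expressing GFP and no p53, and the RW vector expressing GFP together with p53 altered at codon 248, a mutant that binds DNA poorly. Expression ran from TRE-tight promoters, and all cells were sorted for GFP before total RNA was sequenced, so that every library describes transfected cells. Nothing in the sources used here says whether the 6 h and 24 h samples were drawn from the same cultures, and time and culture batch cannot be told apart. A smaller share of cells was GFP-positive at 6 h than at 24 h, so the sorted cells may also differ between times in how soon they began to express the plasmid, which was not tested. In bulk RNA, fewer cells with a transcript and less of it per cell cannot be told apart.

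The 6 h libraries held 39565150 to 58732541 reads on genes (median 48994417) and the 24 h libraries 32302699 to 46646107 (median 39875301). The first principal component held 63.9% of the variance and separated the times, and the second held 10.9% and set replicate 1 of both vectors at 24 h apart from the other 24 h libraries. Of the markers of epithelial and mesenchymal state, *VIM* lay between 2019 and 3130 CPM (counts scaled to a common library size). *KRT18* fell by less than 2-fold and without overlap, from 588 to 699 CPM at 6 h to 304 to 433 CPM at 24 h. It was the 1 that fell of 6 epithelial markers tested. At low level and with overlapping libraries, *KRT7*, *ESRP1* and *CLDN4* rose, with log2 fold changes of 0.54, 0.63 and 0.68. All 3 lung epithelial lineage markers tested rose. *NKX2-1* (0.207 to 0.480 against 0.481 to 1.24 CPM) and *FOXJ1* (0.0400 to 0.244 against 0.190 to 0.859 CPM) passed 2-fold, and *AGER* rose by 0.38 on the log2 scale. *CDH1* held at most 3 reads and *SCGB1A1* none in any library. Of the blood and endothelial markers, *PTPRC* reached 1 read and *CDH5* 3 reads. *HBB*, a globin gene, stood at 348 to 610 CPM at 6 h and 366 to 1248 CPM at 24 h, whereas *HBA1* and *HBA2* never exceeded 3 reads. The source of the *HBB* reads was not tested. Of the other leukocyte, endothelial and fibroblast markers, 5 rose, all at low level: *PECAM1* (0.0225 to 0.142 against 0.285 to 0.875 CPM), *LYZ* (0.0815 to 0.166 against 0.167 to 0.523 CPM), *VWF* (at most 7 reads in any 6 h library and 11 in any 24 h library), *PDGFRA* (at most 3 and 15 reads) and *COL1A1*, whose values are given with the matrix genes.

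Immediate early genes are transcription factors and regulators that growth factors or stress switch on through the ERK cascade without new protein synthesis. Genes of ribosome biogenesis and of DNA replication are expressed most in dividing, well-fed cells. Interferon-stimulated genes and NF-kB targets respond to foreign nucleic acid, of which a transfected plasmid is an example. In a p53-null line these programs can be followed without the action of p53 on its own targets.

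A gene was called a differentially expressed gene (DEG) when its change between times reached 2-fold with an adjusted P below 0.05, with the vector as a block. Of 19277 genes tested, 2035 (10.6%) were DEGs, of which 1749 (9.07%) were higher and 286 (1.48%) lower at 24 h. Counted at any size of change 62.1% of genes passed the test, 6142 (31.9%) upward and 5838 (30.3%) downward, and the median log2 fold change of all genes was 0.02. The 6 libraries of 24 h did not overlap the 6 of 6 h for 7961 genes (41.3%). Rises of 2-fold or more were mostly of genes with few reads. They took up 21.8% of the 5171 genes under a mean of 1 CPM, 14.6% of the 3058 between 1 and 5 CPM, 2.71% of the 6088 between 5 and 50 CPM and 0.242% of the 4960 above 50 CPM. Falls of that size stayed between 1.19% and 2.07% of genes in the 4 classes. The rises also followed GC content, from 4.16% of genes in the lowest quartile to 15.5% in the highest. Across genes, which are not independent replicates, Spearman's rho of the log2 fold change with GC content was 0.258. Genes under a mean of 5 CPM held 0.814% to 0.905% of the reads at 6 h and 1.06% to 1.396% at 24 h. With an offset for GC content and length 1936 genes were DEGs, 1751 of them shared with the 2035.

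**Figure D1:**
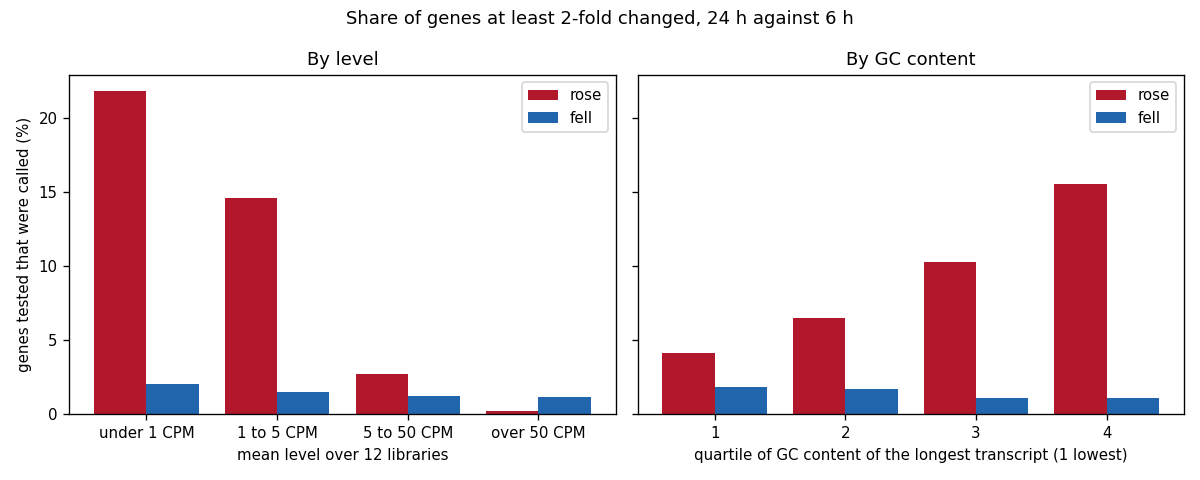
Percentage of tested genes at least 2-fold higher (red) or lower (blue) at 24 h than at 6 h, by mean level over 12 libraries (left) and by quartile of transcript GC content (right). The red bars drop from 21.8% under 1 CPM to 0.242% over 50 CPM and climb from 4.16% to 15.5% over the GC quartiles, while the blue bars stay near 1% to 2%.

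With edgeR no gene differed between RW mutant p53 and pGFP in its change from 6 h to 24 h at an adjusted P under 0.05, 177 genes (0.918%) had an unadjusted P under 0.05, and DESeq2 also called 0, with 95 at that unadjusted P. In simulated counts of this design, drawn independently for each library, 54% of 2-fold and 84% of 4-fold differences of this kind were recovered. Smaller ones may not be detectable at this depth. With no differences, a P under 0.05 would be reached by a share of genes near 0.05, which is above the 0.918% seen. At 24 h both vectors of a replicate number deviated together (correlations of residuals of 0.26 to 0.66). This test did not model that and its P values may be too large. The simulated counts lacked the shared deviation, so their recovery may not hold for these libraries. Fitted alone, pGFP gave 1808 DEGs and RW mutant p53 1658.

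Among genes with a mean of at least 5 CPM, 177 rose and 134 fell by 2-fold or more. The 12 largest rises of which the 6 libraries did not overlap were *MT-RNR1*, *GPR153*, *CLIP3*, *PLXND1*, *MT-RNR2*, *RNU4-2*, *CCNG2*, *SHF*, *RASSF2*, *FOS*, *FOSB* and *EPB41L1*, with log2 fold changes from 2.66 down to 1.91. *CCNG2* (ENSG00000138764.14, chromosome 4, 77157207 to 77433388), a cyclin that FOXO factors raise and that restrains division, had 3.13, 3.50 and 5.0 CPM as its lowest, median and highest values at 6 h and 14.2, 15.3 and 19.2 CPM at 24 h. Its log2 fold change was 2.07 ± 0.12 (SE, adjusted P = 2.47e-09). *PLXND1* (ENSG00000004399.12, chromosome 3, 129555214 to 129606676), a receptor for semaphorins, lay between 4.80 and 5.95 CPM at 6 h, with a median of 5.25, and between 23.5 and 34.7 CPM at 24 h, with a median of 27.98. The log2 fold change was 2.42 ± 0.09 (SE, adjusted P = 1.14e-10). *RASSF2*, a binding partner of RAS, went from a median of 3.57 CPM (2.54 to 4.24) to 14.1 CPM (10.9 to 15.8). *CLIP3*, a microtubule-binding protein, spread more widely, from 2.90 to 7.47 CPM at 6 h and from 19.0 to 33.9 CPM at 24 h. *RNU4-2*, a small nuclear RNA of the spliceosome with a near-identical copy, ranged over 2.09 to 5.84 CPM at 6 h and 6.78 to 48.2 CPM at 24 h, and its count is uncertain where reads could belong to either copy.

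Among the 12 largest falls by the same rule were *BIRC3*, *IFIT2*, *PTX3*, *FGF1*, *UAP1*, *TERT*, *KCTD12*, *PUM3*, *DDX21*, *RTEL1-TNFRSF6B* and *CDCA7*, with log2 fold changes from -2.00 to -1.41. *UAP1* (ENSG00000117143.13, chromosome 1, 162561722 to 162601240), an enzyme that makes UDP-N-acetylglucosamine, fell from a median of 848 CPM (800.0 to 893) to 327 CPM (224 to 344), a log2 fold change of -1.51 ± 0.10 (SE, adjusted P = 1.11e-08). *TERT*, the catalytic subunit of telomerase, had 10.8 to 13.7 CPM at 6 h and 2.36 to 5.02 CPM at 24 h, a log2 fold change of -1.45 ± 0.13 (SE, adjusted P = 2.28e-07). *FGF1*, a growth factor, moved from a median of 10.8 CPM (10.1 to 11.8) to 4.39 CPM (2.19 to 4.68). *RTEL1-TNFRSF6B* is a readthrough gene that shares exons with its neighbours, and its count is uncertain.

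**Figure D2:**
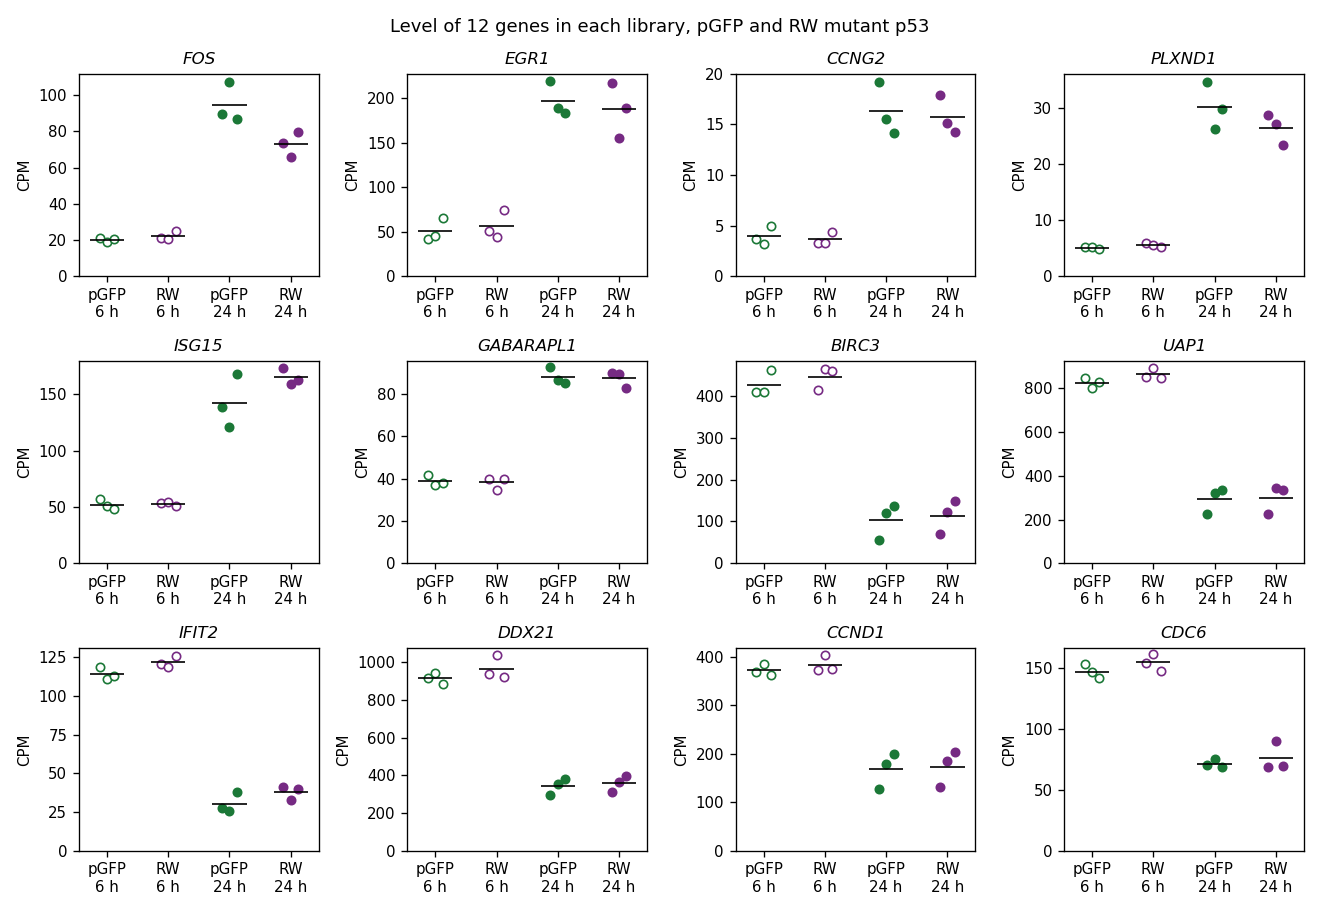
CPM of 12 genes in each library, open circles at 6 h and filled circles at 24 h, green for pGFP and purple for RW mutant p53, with a line at the mean of the 3 replicates. In all 12 panels the 6 libraries of 24 h lie on 1 side of the 6 of 6 h. For genes among the 12 largest rises and falls this was a condition of being named.

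The gene groups moved in different directions, and each count below is of the genes tested, against 31.9% of all genes that rose and 30.3% that fell at any size. Those shares are over genes of every level. The median log2 fold change was 0.32 for genes under a mean of 1 CPM and -0.16 for those over 50 CPM. Whether a list moved more than other genes of its level was not tested. The lists were assembled with earlier results of these data known, so the direction of a list is a description.

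Of 27 immediate early genes, 19 rose, 8 of them by 2-fold or more, none fell, and the median log2 fold change was 0.79. *FOS* (ENSG00000170345.9, chromosome 14, 75278826 to 75282230), a subunit of AP-1, had a lowest, median and highest value of 18.9, 20.7 and 24.9 CPM at 6 h and 65.8, 83.3 and 108 CPM at 24 h. The log2 fold change was 1.98 ± 0.10 (SE, adjusted P = 6.41e-10). At 24 h the 3 pGFP libraries, 87.1 to 108 CPM, lay above the 3 RW mutant libraries, 65.8 to 79.4 CPM. The difference in time change had an unadjusted P of 0.002 in edgeR and, as for every gene tested, did not pass after adjustment. *FOSB*, its paralog, rose from a median of 6.78 CPM (5.97 to 10.3) to 27.5 CPM (17.9 to 43.2). *EGR1*, a zinc finger factor that growth signals induce within minutes, went from a median of 47.8 CPM (41.7 to 74.4) to 189 CPM (156 to 219). Its log2 fold change was 1.85 ± 0.14 (SE, adjusted P = 2.05e-08). *EGR2* lay below 0.2 CPM at 6 h, between 0.0675 and 0.153 CPM, and between 0.388 and 0.887 CPM at 24 h. *NR4A3* and *NR4A2*, orphan nuclear receptors, had log2 fold changes of 1.37 and 1.23, and *ZFP36*, which directs decay of cytokine mRNA, 1.01. Of 3 other members that define the list, *ATF3*, a stress-induced factor, rose by 0.25 ± 0.10 with overlapping libraries and *JUN* and *MYC* did not pass the test. *JUN* had 37.6 to 43.1 CPM at 6 h and 29.6 to 62.5 CPM at 24 h (log2 fold change 0.19 ± 0.14, adjusted P = 0.278), and *MYC* had 32.9 to 47.5 and 23.7 to 65.4 CPM (0.32 ± 0.22, adjusted P = 0.22). For both genes the 2 lowest values at 24 h were replicate 1 of pGFP and of RW mutant p53, 23.7 and 26.8 CPM for *MYC*, while the other 4 libraries of 24 h lay above every 6 h library. Without that replicate of both vectors the log2 fold changes were 0.64 for *MYC* (adjusted P = 2.36e-06) and 0.41 for *JUN* (adjusted P = 4.28e-05), and 23 of the 27 genes rose.

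Feedback genes of the ERK cascade, which it induces and which then damp it, rose in 11 of 15 cases and fell in 2, with a median of 0.52. *DUSP4*, a nuclear phosphatase of ERK, was the DEG of the list, from 0.0207 to 0.180 CPM at 6 h to 0.186 to 0.345 CPM at 24 h. *SPRY4* (median 30.3 against 54.3 CPM) and *DUSP6* (20.2 against 34.4 CPM) rose by less than 2-fold, with log2 fold changes of 0.75 ± 0.09 and 0.63 ± 0.09. *DUSP7* fell by 0.49 and *SPRED1* by 0.38 on that scale.

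Interferon-stimulated and nucleic acid sensing genes split. Of 34 tested out of 49 listed, 20 rose, 9 of them by 2-fold or more, and 7 fell, 2 of them by that much, with a median of 0.44. *ISG15* (ENSG00000187608.8, chromosome 1, 1001138 to 1014540), a ubiquitin-like modifier, had 48.1, 52.3 and 57.4 CPM as its lowest, median and highest values at 6 h and 121, 161 and 174 CPM at 24 h, a log2 fold change of 1.55 ± 0.07 (SE, adjusted P = 5.16e-10). *IFI6*, a small antiviral membrane protein, went from a median of 7.37 CPM (6.64 to 8.29) to 23.4 CPM (17.7 to 38.7). *MX1*, a GTPase that blocks incoming viruses, lay between 0.559 and 0.679 CPM at 6 h and between 1.09 and 4.88 CPM at 24 h, where the highest value was RW mutant p53 replicate 1. *OAS2*, which senses double-stranded RNA, and *CCL5*, a chemokine, rose from below 0.1 CPM, to 0.272 to 0.829 CPM and 0.194 to 0.969 CPM. The IFIT genes, whose proteins bind foreign RNA, went the other way. *IFIT2* (ENSG00000119922.9, chromosome 10, 89283694 to 89309271) dropped from 111, 119 and 126 CPM to 25.5, 35.3 and 41.4 CPM, a log2 fold change of -1.80 ± 0.09 (SE, adjusted P = 6.25e-10). *IFIT3* fell from a median of 68.5 CPM (62.9 to 72.6) to 27.6 CPM (21.1 to 33.7), and *IFIT1* from 63.2 CPM (56.9 to 64.1) to 29.9 CPM (22.6 to 50.7), by 0.95 ± 0.13 on the log2 scale. Neither *IFNB1* nor *CXCL10* had enough reads to be tested.

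Both directions occurred among genes whose promoters hold the interferon-stimulated response element (ISRE). The letters GAAA, any 2 bases and GAAA, sought on both strands in the 250 bases before each RefSeq start (GRCh38.p14), were found in 51.1% of 47 windows of the list, for 35 of its genes matched by symbol, against 3.02% of all 35116 windows. Of the matched genes that rose 10 of 14 held it, and of those that fell 3 of 5. The promoters of *IFI6*, which rose, and *IFIT3*, which fell, are shown for that contrast, 5′ to 3′ on the strand of the gene, with the ISRE letters of either strand in capitals. *IFI6* is chr1:27672193-27672442, minus strand, and *IFIT3* is chr10:89332279-89332528, plus strand, the second of its 2 windows.
IFI6: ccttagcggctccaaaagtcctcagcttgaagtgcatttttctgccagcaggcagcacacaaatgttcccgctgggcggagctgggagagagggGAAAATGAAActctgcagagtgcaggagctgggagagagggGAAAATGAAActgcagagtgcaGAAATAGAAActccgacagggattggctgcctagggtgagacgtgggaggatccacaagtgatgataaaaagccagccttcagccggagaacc
IFIT3: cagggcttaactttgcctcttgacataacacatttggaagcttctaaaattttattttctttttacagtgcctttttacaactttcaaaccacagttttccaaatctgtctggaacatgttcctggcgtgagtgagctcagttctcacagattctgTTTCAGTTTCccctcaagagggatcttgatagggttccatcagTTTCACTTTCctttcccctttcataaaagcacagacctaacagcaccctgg
In *IFI6* the 3 matches begin 156, 115 and 93 bases before the start, and in *IFIT3* the 2 begin 94 and 51 bases before it. A match is a description of letters, and binding was not measured.

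NF-kB and cytokine genes also split, with 7 of 20 tested rising, 8 falling and a median of -0.16. *BIRC3* (ENSG00000023445.13, chromosome 11, 102317484 to 102339403), an inhibitor of apoptosis that NF-kB induces, had 409, 437 and 463 CPM (lowest, median, highest) at 6 h and 55.5, 122 and 149 CPM at 24 h. Its log2 fold change was -2.00 ± 0.19 (SE, adjusted P = 2.76e-07), and replicate 1 of pGFP and of RW mutant p53, at 55.5 and 70.9 CPM, were the lowest at 24 h. *TRAF1*, an adaptor of TNF receptors, fell from a median of 54.7 CPM (52.3 to 61.9) to 22.8 CPM (15.3 to 26.5). The NF-kB subunit genes *RELB* and *NFKB2* fell by less, by 0.90 ± 0.07 and 0.66 ± 0.08 on the log2 scale, and *NFKB1* by 0.47. On the other side, *IL11*, a cytokine of the IL-6 family, rose from 0.225 to 0.407 CPM at 6 h to 1.67 to 2.28 CPM at 24 h, a log2 fold change of 2.78 ± 0.16 (SE, adjusted P = 2.82e-09). *TNF* held at most 2 reads in any 6 h library and at most 14 in any 24 h library, and the libraries of the times overlapped. *NFKBIA*, the inhibitor that NF-kB induces first, changed by 0.23 ± 0.10 (adjusted P = 0.0477) with overlapping libraries, 18.7 to 24.7 against 18.7 to 27.03 CPM. In the 250 bases before the start, the NF-kB consensus was found in 51.9% of 27 windows of the list, for 21 of its genes, against 9.96% of all. The window of *BIRC3*, chr11:102317234-102317483 on the plus strand, is shown as that of the gene that fell most, with the matches in capitals.
BIRC3: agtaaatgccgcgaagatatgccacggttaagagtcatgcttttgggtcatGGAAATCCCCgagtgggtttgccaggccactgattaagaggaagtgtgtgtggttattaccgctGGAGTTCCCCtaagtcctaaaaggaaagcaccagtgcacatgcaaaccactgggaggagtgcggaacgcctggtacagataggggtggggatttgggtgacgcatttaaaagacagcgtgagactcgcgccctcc
They begin 199 and 135 bases before the start.

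**Figure D3:**
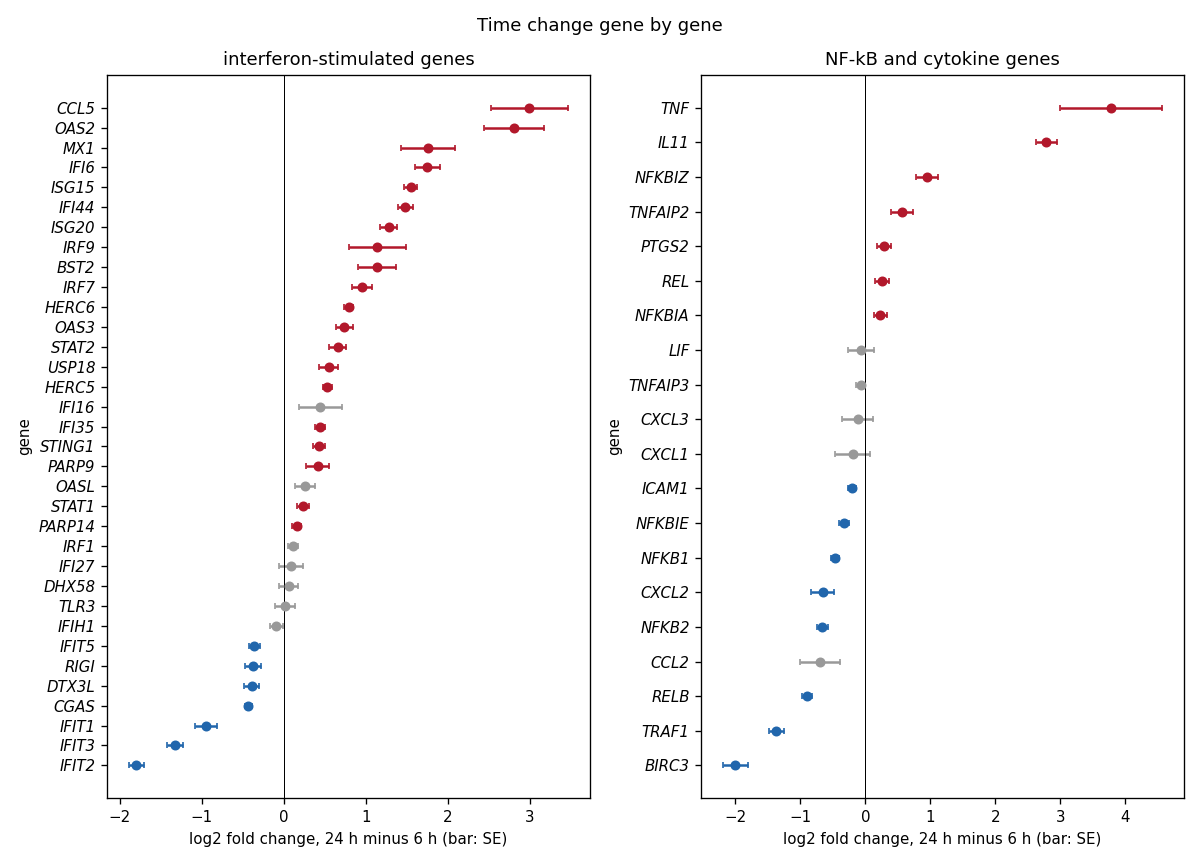
Log2 fold change from 6 h to 24 h with its SE for each tested gene of the interferon (left) and NF-kB (right) lists, red where it rose, blue where it fell and grey where the test was not passed. *IFIT2* at -1.80 and *BIRC3* at -2.00 end the lists at the bottom, and *CCL5* and *TNF*, both of few reads, at the top.

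All 30 ribosome biogenesis genes fell, 7 of them by 2-fold or more, with a median of -0.81, and at any size of change all 30 fell in every setting tried. The count at 2-fold ranged from 3, with total counts, to 9. *DDX21* (ENSG00000165732.12, chromosome 10, 68956135 to 68985068), an RNA helicase of the nucleolus, had 885, 930 and 1039 CPM as its lowest, median and highest values at 6 h and 294, 359 and 396 CPM at 24 h. Its log2 fold change was -1.43 ± 0.07 (SE, adjusted P = 5.61e-10). *UTP20*, a component of the small-subunit processome, fell from a median of 244 CPM (228 to 262) to 106 CPM (88.5 to 115), *NOP16* from 102 CPM (92.1 to 108) to 45.7 CPM (32.8 to 49.0) and *POLR1B*, a subunit of RNA polymerase I, from 157 CPM (151 to 160) to 73.2 CPM (60.0 to 79.4). With total counts *POLR1B* changed by -0.98 on the log2 scale and was no longer a DEG. The abundant nucleolar proteins *NCL* and *NPM1* fell by 0.78 ± 0.09 and 0.72 ± 0.06 on the log2 scale, and *FBL*, which methylates ribosomal RNA, by 0.45 ± 0.07. The E-box letters CACGTG, the site of MYC and related factors, were found before 4 of 29 starts of the list (13.8%), for 24 of its genes, against 6.34% of all. With so few matches no enrichment can be read from these shares. Host genes of snoRNAs, which guide modification of ribosomal RNA, fell in 18 of 19 cases with a median of -0.29, *SNHG3* by 0.93 ± 0.05. With total counts in place of TMM scaling 7 of these 19 fell. Cytosolic ribosomal protein genes moved little. Their median was -0.12, with 36 of 78 falling and 4 rising, none by 2-fold, and with total counts the balance turned to 27 rising and 11 falling, so no direction can be given for them. *RPLP0* had a median of 1430 CPM at 6 h and 1439 CPM at 24 h.

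G1/S and replication genes fell in 39 of 43 cases, with 1 rising and a median of -0.50. *CCND1* (ENSG00000110092.3, chromosome 11, 69641156 to 69654474), the cyclin that starts the G1 transition, had 362, 373 and 404 CPM at 6 h and 127, 181 and 203 CPM at 24 h, a log2 fold change of -1.15 ± 0.10 (SE, adjusted P = 1.89e-07). *CDC6*, which loads the replicative helicase, fell from a median of 150.1 CPM (142 to 162) to 69.6 CPM (68.3 to 90.3), by 1.03 ± 0.06. Both lost their 2-fold call without replicate 1 of both vectors at 24 h, and over all settings their smallest log2 changes were -0.98 and -0.86. Of the helicase itself, *MCM3* fell from a median of 404 CPM (368 to 416) to 226 CPM (209 to 255), by 0.81 ± 0.05, and *UHRF1*, which recruits DNA methylation to new DNA, from 145 to 85.9 CPM. The E2F letters TTTCCCGC or TTTGGCGC stood before 34.0% of 47 starts of the list, for 36 genes, against 1.93% of all. *MCM3* is shown as a member that fell, chr6:52284743-52284992 on the minus strand, with the letters in capitals 174 bases before the start.
MCM3: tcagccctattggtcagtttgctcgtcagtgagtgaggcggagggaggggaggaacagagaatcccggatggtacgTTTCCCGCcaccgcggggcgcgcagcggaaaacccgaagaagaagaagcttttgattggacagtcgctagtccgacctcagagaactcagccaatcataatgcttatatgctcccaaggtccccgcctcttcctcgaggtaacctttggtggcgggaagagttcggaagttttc
Genes of G2 and mitosis did not share that direction. Their median was 0.09, with 16 of 43 rising and 12 falling, none by 2-fold, and 27 rising and 5 falling with total counts. *CDK1* fell by 0.43 ± 0.08 and *PLK1*, a mitotic kinase, rose by 0.17 ± 0.05. Replication-dependent histone genes fell in 33 of 51 cases and rose in 3, with a median of -0.46. *H4C11* fell from a median of 9.98 CPM (8.19 to 11.3) to 3.89 CPM (2.95 to 5.48). Histone genes have near-identical copies, and where reads could be split between them the counts are uncertain. In the RW mutant libraries alone 15 of them fell, and with pGFP alone 34.

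Lysosome and autophagy genes rose in 22 of 30 cases and fell in 3, with a median of 0.34. *TFEB*, the factor that switches them on, went from a median of 1.03 CPM (0.737 to 1.36) to 4.59 CPM (4.14 to 5.33), a log2 fold change of 2.15 ± 0.13 (SE, adjusted P = 4.66e-09). *GABARAPL1*, a protein of autophagosome membranes, had 34.8 to 41.6 CPM at 6 h and 83.1 to 92.8 CPM at 24 h. *CTSD*, a lysosomal protease, rose by 0.55 ± 0.04 on the log2 scale, whereas *SQSTM1*, the cargo receptor that autophagy consumes as protein, fell by 0.44 ± 0.12. Circadian clock genes moved both ways, with 14 of 18 rising, 4 falling and a median of 0.55. *BMAL1*, the activating subunit, rose from a median of 11.2 to 18.4 CPM and *PER1* from 14.5 to 23.2 CPM, and *NR1D2*, which represses *BMAL1*, fell from 41.9 to 30.6 CPM. *HLF* and *RORA*, a factor of the clock output and an activator of *BMAL1*, passed 2-fold, but without replicate 1 of both vectors at 24 h neither did, and their smallest log2 changes over the settings were 0.76 and 0.89.

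Endoplasmic reticulum chaperones and related genes rose in 15 of 20 cases with a median of 0.24, *HSPA5* by 0.37 ± 0.12 and *SYVN1*, a ubiquitin ligase of that membrane, by 0.72 ± 0.11. Cytosolic heat shock genes rose in 4 and fell in 9 of 19 cases. *HSPA8*, the constitutive chaperone, fell from a median of 4423 CPM (4368 to 4703) to 2629 CPM (1989 to 2876), by 0.85 ± 0.09, while *HSPB1* rose by 0.91 ± 0.09 and the inducible *HSPA1A* had a median of 58.9 against 59.8 CPM (adjusted P = 0.956). With total counts, 10 of the 19 rose and 6 fell. Among ATF4 targets, the amino acid response, 6 of 30 rose and 13 fell, and that too turned with total counts, to 11 rising and 7 falling. *DDIT3*, a factor of the stress response, rose by 0.62 ± 0.10 and *ATF4* itself had medians of 185 and 174 CPM (adjusted P = 0.217).

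Lipid and glucose genes showed no common direction. Of 23 cholesterol genes 5 rose and 6 fell, but 14 and 1 with total counts. Of 12 fatty acid synthesis genes 2 rose and 6 fell, *ACACA* by 0.61 ± 0.05 and *ELOVL6* by 0.62 ± 0.07. Over the other settings 4 to 7 of these genes fell and 1 to 3 rose. In the hypoxia and glycolysis list 11 of 33 rose and 11 fell, but 20 and 6 with total counts. *NDRG1* rose from 0.303 to 0.480 CPM to 1.53 to 2.14 CPM, and *ENO2*, an enolase, from a median of 18.9 to 40.5 CPM, whereas *HK2*, which starts glycolysis, fell from 74.5 to 45.4 CPM and *LDHA* by 0.30 ± 0.07. *VEGFA* had 25.3 to 29.2 CPM at 6 h and 22.1 to 25.1 CPM at 24 h. In the NRF2 and metallothionein list 6 of 18 rose and 5 fell, but 11 and 2 with total counts, and neither *HMOX1* (adjusted P = 0.89) nor *NQO1* (adjusted P = 0.654) passed the test. *SRXN1* passed 2-fold with overlapping libraries, 0.120 to 0.445 against 0.115 to 1.60 CPM.

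Matrix and adhesion genes held large changes on both sides, with 16 of 33 rising and 9 falling and a median of 0.17. *COL1A1*, the main fibrillar collagen, went from 0.272 to 0.472 CPM to 0.920 to 2.07 CPM, while *COL1A2*, its partner chain, never exceeded 2 reads and *COL5A1* held at most 3 reads in any 6 h library and 30 in any 24 h library. *FN1*, fibronectin, rose from a median of 22.0 CPM (18.8 to 24.5) to 41.9 CPM (37.3 to 45.4). *THBS1*, thrombospondin, fell from a median of 168 CPM (154 to 213) to 66.1 CPM (55.2 to 78.7), by 1.41 ± 0.10, and *ITGA6*, a laminin receptor, from 884 to 467 CPM. In the overlapping list of TGF-beta and YAP targets 10 of 19 rose, among them *CCN2* (32.5 against 61.7 CPM) and *CCN1* (42.2 against 89.6 CPM), and 6 fell, among them *ANKRD1* (9.87 against 5.49 CPM). *ANKRD1* lost its call in 6 of 26 settings.

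Of the 15 transcripts of the mitochondrial genome, 5 rose and 1 fell. The ribosomal RNAs *MT-RNR1* and *MT-RNR2* rose from medians of 132 CPM (40.1 to 184) and 391 CPM (158 to 576) to 717 CPM (328 to 1216) and 2022 CPM (913 to 2503). Their share of all reads went from 0.0183% to 0.0717% at 6 h to 0.127% to 0.378% at 24 h, without overlap. The library kit removes ribosomal RNA, that of mitochondria included, so these reads are what escaped it, and whether removal differed between times was not tested. Of the protein-coding transcripts, *MT-ND3* rose with overlapping libraries and lost its call in 10 of 26 settings, *MT-ND4* had 42.9 to 129 CPM at 6 h and 37.3 to 130 CPM at 24 h (adjusted P = 0.747), and *MT-ND6*, the protein-coding transcript of the light strand, fell from a median of 25 CPM (17.0 to 37.7) to 10.1 CPM (7.50 to 14.6).

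The p53 targets named by the study were chosen on samples of this series, so their direction is not independent evidence. Of 12 genes 9 rose, 2 of them by 2-fold, and 2 fell, with a median of 0.20, and in the RW mutant libraries alone 3 rose and 2 fell. *CDKN1A*, the inhibitor of cyclin-dependent kinases, had 35.1 to 47.2 CPM at 6 h and 46.6 to 52.7 CPM at 24 h, with adjusted P up to 0.574 in other settings, and *FAS*, a death receptor, 12.4 to 14.5 and 9.90 to 12.0 CPM. *BMP7* and *ADGRG1*, which passed 2-fold, stayed below 1 CPM in every library.

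The same interval was compared with that of cells carrying wild type p53, in 18 libraries scaled together, as the change with wild type p53 minus the mean change of pGFP and RW mutant p53. Of 20318 genes tested 414 (2.04%) differed by at least 2-fold at an adjusted P under 0.05, 284 (1.4%) in favour of wild type p53 and 130 (0.64%) against it. Counted at any size, 1426 (7.02%) and 1128 (5.55%) did. In that fit 1928 genes rose and 346 fell by 2-fold or more without active p53 and 2113 and 432 with wild type p53. The 1242 rises in common were 64.4% and 58.8% of the lists, and the 143 falls in common 41.3% and 33.1%. No gene that rose without active p53 fell by 2-fold with it, and 1 that fell rose.

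In cells without active p53 *VCAN*, a proteoglycan, fell from 14.2 to 18.2 CPM to 7.14 to 8.70 CPM, while with wild type p53 it had 61.4, 66.3 and 78.3 CPM at 6 h and 272, 214 and 146 CPM at 24 h. The difference between the changes was 2.64 ± 0.19 on the log2 scale (SE, adjusted P = 4.42e-07). *ATP8B1*, a lipid flippase, and *LIMA1*, an actin-bundling protein, likewise fell without active p53 and rose with it, with differences of 1.89 ± 0.18 and 1.55 ± 0.15. *PLXND1*, among the largest rises without active p53, reached 12.3, 12.2 and 10.9 CPM with wild type p53 at 24 h, and its rise was smaller by 1.26 ± 0.14. *CA2*, a carbonic anhydrase, rose from 11.5 to 13.9 CPM to 22.3 to 26.5 CPM, while with wild type p53 it had 11.5 to 12.4 and 10.2 to 12.8 CPM. That difference, -1.004 ± 0.12, was under 2-fold in 11 of 24 settings. *CCNE2*, a cyclin of S phase entry, fell in both, from 99.6 to 130.3 CPM to 69.3 to 86.8 CPM without active p53 and from 66.2 to 80.5 CPM to 24.95 to 26.97 CPM with it, a difference of -1.10 ± 0.13. By list and at any size, the change with wild type p53 was lower for 24 of 43 G1/S genes, 29 of 43 G2/M genes and 31 of 51 histone genes. It was lower for none of the 30 ribosome biogenesis and none of the 78 ribosomal protein genes, against 5.55% of all genes. Among the lists it was higher for 7 of 19 snoRNA host genes, 7 of 30 ribosome biogenesis genes, 5 of 20 cytosolic heat shock genes and 6 of 34 matrix and adhesion genes. The same held for 5 of 31 ATF4 targets, 4 of 27 immediate early genes and 6 of the 12 p53 targets named by the study, against 7.02% of all genes. Those targets were chosen on samples of this series, so their count is not independent evidence.

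**Figure D4:**
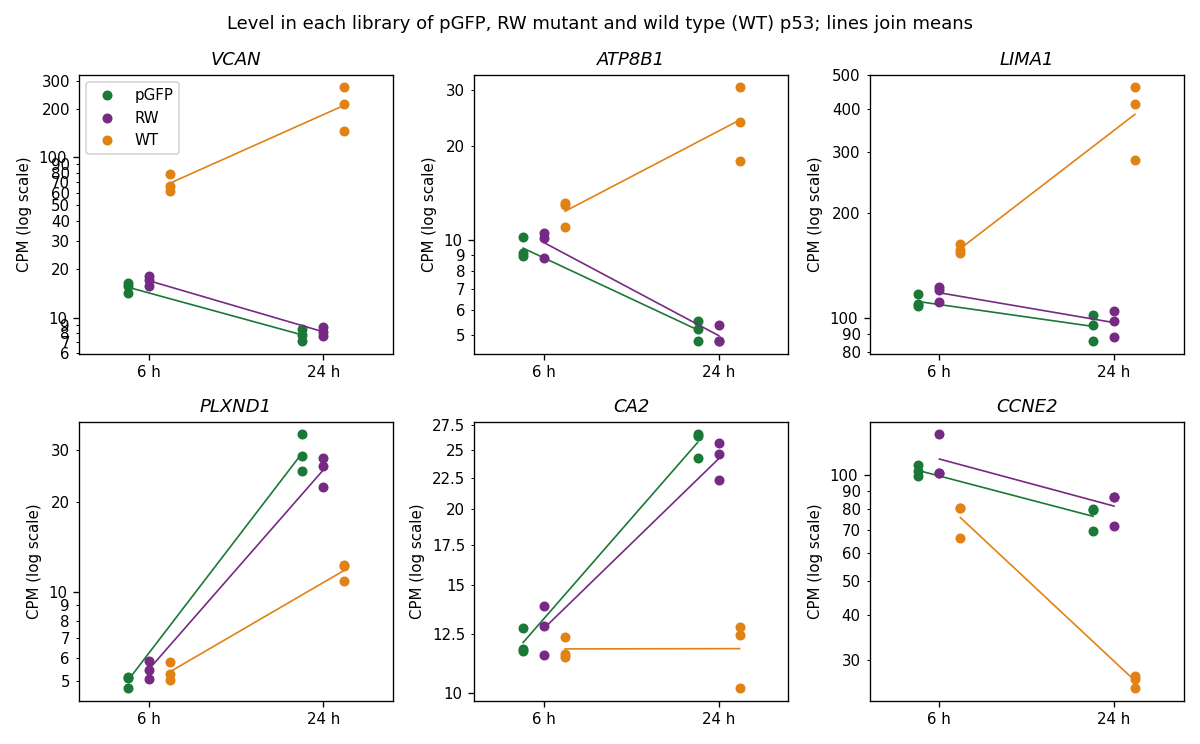
CPM on a log axis in each library of pGFP (green), RW mutant p53 (purple) and wild type p53 (orange) at 6 h and 24 h, with lines joining the means of 3 replicates. The 6 genes are the 3 with the smallest P in each direction among those that differed by at least 2-fold. pGFP and RW mutant p53 run together, and wild type p53 runs upward where they fall (*VCAN*, *ATP8B1*, *LIMA1*) or stays below them at 24 h (*PLXND1*, *CA2*, *CCNE2*).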

How the data were processed

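Libraries were prepared with a stranded total RNA kit after removal of ribosomal RNA. Alignment by the authors was to hg38 with STAR 2.5.3a, reads were then counted on GENCODE v27 genes with featureCounts of Subread 1.5.2, and the deposited values used here are these raw counts of 39359 genes. How strand was treated in counting is not given in the sources used here, so counts of the 42 of 128 named genes with an exon opposite an exon of another gene are uncertain. The deposited normalized table was not used. Coordinates are of hg38 from GENCODE v44, which matched 38904 genes, and promoters are from RefSeq (GRCh38.p14).

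Groups were taken from the labels. With edgeR 4.0.16 in R 4.3.3, genes were filtered by filterByExpr over the 4 groups, scaled by TMM and tested by the quasi-likelihood test with terms for vector and time. The vector by time term was tested likewise, and the wild type comparison used 18 libraries with a term per group. Adjusted P values are those of Benjamini and Hochberg across every tested gene, and standard errors come from the estimate and its F statistic. Alternatives were DESeq2 1.42.0 and its size factors, other filters, all 30 libraries, the replicate number as a block, each vector alone, counts summed over vectors, limma 3.58.1, and each library left out. A GC and length offset, total counts in place of TMM, and omission of replicate 1 of both vectors at 24 h were added after the data had been seen.

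The genes named are, with a mean of at least 5 CPM, a gene symbol and no overlap between times, the 12 largest rises and falls, from each list up to 4 DEGs and 3 defining members, and the 3 smallest P on each side of the wild type comparison. Other list members and markers were named after their values were seen. The members and lists were chosen with earlier results of these data known. Nothing says that replicates are more than separate samples of a group beyond the study's term biological triplicates. P values of the main fit treat all 12 libraries as independent. No 2 libraries of a group were duplicates (chi-square per degree of freedom of 6.8 to 33.4). Replicate numbers did not pair libraries across times (2 of 12 correlations of residuals above 0.1), but at 24 h both vectors of a number deviated together (0.26 to 0.66). The 24 h libraries are therefore not fully independent, and P values of the main fit may be too small. Those of the vector by time test may be too large. With a random block for libraries of 1 time and number (correlation 0.48), limma gave 1870 DEGs. On simulated counts for the time comparison, 82% of 2-fold and 97% of 4-fold changes reached an adjusted P under 0.05 in the right direction. At that threshold 11 unchanged genes passed. The 2-fold rule was not applied there, and the median estimate for 2-fold changes was 0.97 on the log2 scale. The simulated counts were drawn independently for each library, without the shared deviation at 24 h. The gene carried by the vectors and some other genes that the rule names are not reported here.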

Additional observations from a re-analysis of the deposited data

Results flagged for a closer look

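Genes whose change from 6 h to 24 h differed between wild type p53 and cells without active p53, by a test of the difference itself, numbered 414. The differences given below are wild type p53 minus the mean of pGFP and RW mutant p53 on the log2 scale. Among the genes with the smallest P they were 2.64 for *VCAN*, 1.89 for *ATP8B1* and 1.55 for *LIMA1*, and -1.26 for *PLXND1*, -1.004 for *CA2* and -1.10 for *CCNE2*. Among the other genes named for the time comparison, the difference was 1.05 for *PTX3*, -1.51 for *IL11*, -1.41 for *COL1A1*, 2.80 for *BMP7*, -1.27 for *CDK1*, -1.13 for *H1-5* and 1.07 for *CDKN1A*. *IL11* rose in both, by 2.75 without active p53 and 1.24 with wild type p53. *BMP7* rose by 1.13 and 3.93, and *CDK1* fell by 0.46 and 1.73. *COL1A1* changed by 2.04 without active p53 and by 0.63 with wild type p53 (adjusted P = 0.0866 in edgeR for the latter). The cause of these differences was not tested.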

How the results depend on the processing

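With every gene of at least 1 count 3347 genes were DEGs (2905 higher, 442 lower), and with at least 10 counts in every library 1003 (828 higher, 175 lower), since these filters test more and fewer genes of low level. Total counts without TMM raised the median log2 fold change of all genes to 0.195 and gave 137 lower DEGs, with 94.5% of DEGs higher. Leaving out single libraries gave 1990 to 2340 DEGs (1668 to 2003 higher, 295 to 337 lower), 0 to 0 genes with a vector by time difference, and 319 to 546 in the wild type comparison (182 to 405 higher, 106 to 146 lower). The count of 182 was without wild type p53 24 h replicate 1, and with at least 10 counts in every library 82 were lower. With at least 1 count, 4 genes differed between the vectors, *MT-ND1*, *MT-ND2*, *MT-ATP6* and *MT-ND4*, named after their values were seen. The replicate block gave 2017 DEGs (1727 higher, 290 lower), 455 genes in the wild type comparison (295 and 160) and 0 between the vectors. Counts summed over both vectors gave 2205 DEGs, and a random block for the shared number at each time, with limma, 1870. Without replicate 1 of both vectors at 24 h there were 1854, of which 1563 were shared. *CCND1*, *CDC6* and *RORA* then fell below 2-fold, and over all settings their smallest log2 changes were -0.98, -0.86 and 0.89. *SRXN1* lost its call in 8 of 24 settings, and *CA2* in the wild type comparison in 11 of 24, at differences down to -0.93. No named gene that was a DEG changed direction in any setting run. Of the named genes that were not, 7 had log2 changes of both signs over the settings, among them *ATF4*, *HSPA1A*, *RPLP0* and *MT-ND4*. The balance of the ribosomal protein, ATF4 target, cytosolic heat shock and cholesterol lists turned with total counts. That of the cholesterol list turned in other settings too. Among them were at least 10 counts in every library and the GC and length offset. So were the omission of replicate 1 of both vectors at 24 h (10 rising, 5 falling) and the RW mutant libraries alone (3 and 1). Depth limits mostly the genes under 1 CPM, and calls of genes with at most 3 counts in every 6 h library numbered 49.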
